A study of Mus musculus with 22 samples.

Results

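A group of 10 genes was followed through the livers of mice that lacked or kept Flcn: *Afp*, *H19*, *Igf2*, *Gpc3*, *Dlk1*, *Meg3*, *Igf2bp3*, *Cdkn1c*, *Peg3* and *Scd4*. They were chosen by name, as genes of the fetal liver or genes that are expressed from 1 parental copy, and stand for 10 of the 55573 genes in the count table. These genes and the gene lists below were chosen with earlier results of these data known. Counts and shares over them are therefore descriptions only. The study asked whether loss of folliculin (FLCN) in hepatocytes changes how the liver responds to a diet that causes fibrosis, and sequenced liver mRNA from 22 mice, 1 library per mouse. All mice were C57BL/6 and carried Albumin-Cre, which is active in hepatocytes. Which other liver cells of the knockout animals keep *Flcn* was not tested.

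Cre mice were the controls, FlcnWT/WT; Albumin-cre+/-, and the liver-specific knockouts (Flcn KO mice here, labelled FLCN KO) were Flcn f/f with Albumin-Cre, which removes exon 7. From 6 weeks of age they ate for 6 weeks either chow with 10 kcal percent fat or a methionine/choline deficient (MCD) diet, and were about 3 months old. There were 6 Cre mice on chow, 5 Cre mice on MCD, 5 Flcn KO mice on chow and 6 Flcn KO mice on MCD. Reads assigned to genes per library numbered 15276157 to 19417246 for Cre mice on chow, 18201287 to 21144388 for Cre mice on MCD, 13751347 to 19645473 in Flcn KO mice on chow and 16616132 to 20706657 in Flcn KO mice on MCD. Levels below are counts-per-million (CPM) after TMM scaling, and differences are log2 fold changes from the quasi-likelihood test of edgeR, with p-values adjusted by Benjamini-Hochberg over the 14062 genes tested, called at an adjusted p under 0.05. That test gives no SE. Each SE of a log2 fold change below is the absolute change divided by the square root of the F statistic of the test.

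The fetal liver makes a set of proteins and RNAs that it silences around birth, and liver injury, regeneration and liver tumours can bring some of them back. An imprinted gene is transcribed from the maternal or the paternal copy alone, and imprinted genes lie in clusters in which neighbours share control elements. *Igf2*, *Dlk1* and *Peg3* are expressed from the paternal copy and *H19*, *Meg3* and *Cdkn1c* from the maternal copy, while *Afp*, *Gpc3* and *Igf2bp3* are fetal or oncofetal genes that are not known for imprinting. *Scd4* encodes a stearoyl-CoA desaturase best known from the heart, and textbook knowledge places it in neither class.

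Several libraries stood apart. Cre MCD replicate 3 held 2740 CPM over 10 skeletal muscle genes, led by *Myh1* and *Acta1*, against 132 CPM in Cre MCD replicate 4, 61.2 CPM in FLCN KO MCD replicate 3, 17.4 CPM in Cre MCD replicate 1 and at most 12.7 CPM in the other libraries. The labels give no sex. From *Xist* and the Y-linked gene *Ddx3y*, 12 libraries were read as female and 10 as male, with both sexes in every group. At least 1 *Ddx3y* read was found in 11 of the female libraries. In 5 of them *Ddx3y* was over 5 CPM, at up to 15.6 CPM where male libraries had at least 55.5 CPM, and these are the libraries called below those with *Xist* and Y-linked reads: Cre Chow replicate 2, Cre MCD replicate 1, FLCN KO Chow replicates 2 and 4, and FLCN KO MCD replicate 3. The study's alignment statistics mark 5 chow libraries as low in uniquely mapped reads, the same 5 chow libraries that were read as male, so that mapping and sex cannot be told apart on chow. Fits without these 5 libraries keep only chow livers read as female, beside MCD livers of both sexes.

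The targeted gene was checked first. *Flcn* (ENSMUSG00000032633, chr11:59791408-59810016, GRCm38) was at 27.6, 31.5, 31.9, 26.1, 32.6 and 40.1 CPM in Cre mice on chow and at 24.2, 19.9, 16.7, 19.4 and 21.7 CPM in Flcn KO mice on chow. The groups did not overlap, and the level was lower by a log2 fold change of -0.63 (SE 0.173, adjusted p = 0.0249 by edgeR; exact permutation p = 0.00216). The call was lost without the 5 chow libraries of low unique mapping (-0.55, adjusted p = 0.244), without the libraries with *Xist* and Y-linked reads (-0.60, adjusted p = 0.205), and without Cre Chow replicate 6, FLCN KO Chow replicate 3 or FLCN KO Chow replicate 4 in turn (adjusted p = 0.0567, 0.0663 and 0.0679). On MCD, Cre mice had 29.1 ± 8.41 CPM (SD, n = 5) while Flcn KO mice had 26.0 ± 5.12 CPM (SD, n = 6), a log2 fold change of -0.16 (SE 0.170, adjusted p = 0.567 by edgeR). A gene count includes reads outside the deleted exon and from cells without Cre, so it checks the labels only in part, and on MCD it did not separate the genotypes. The hepatocyte markers *Alb*, *Apoa1*, *Ttr*, *Cyp2e1*, *Cps1* and *Tat* were all abundant enough to test, and *Alb* was at 100924 ± 21292 CPM (SD, n = 6) in Cre mice on chow. Embryonic erythroid globins (*Hbb-y*, *Hba-x*, *Hbb-bh1*) had no read in any library.

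The promoters of 4 members are shown because their genes gave the widest diet response (*Afp*) or differed between the genotypes on MCD without overlap (*Meg3*, *Peg3*, *Igf2bp3*). The sequences are RefSeq windows on GRCm38.p6, 5′ to 3′ on the strand of the gene, and 8 of the 10 members had such a window; *H19* and *Cdkn1c* had none. Capitals mark motifs that were looked for on both strands after the sequences had been seen. The E-box CACGTG, a palindrome that factors of the helix-loop-helix type can bind, the cyclic AMP response element TGACGTCA, also a palindrome, the TATA box TATAAA and the letters GTTAAT, a core of the site of hepatocyte nuclear factor 1, were searched in windows of 300 bases.
Afp chr5:90490464-90490713, plus strand: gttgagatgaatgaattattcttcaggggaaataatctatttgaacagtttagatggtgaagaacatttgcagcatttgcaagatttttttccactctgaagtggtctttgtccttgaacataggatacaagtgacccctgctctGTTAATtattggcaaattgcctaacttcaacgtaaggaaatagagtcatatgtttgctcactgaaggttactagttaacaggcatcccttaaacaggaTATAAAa
Meg3 chr12:109540746-109540995, plus strand: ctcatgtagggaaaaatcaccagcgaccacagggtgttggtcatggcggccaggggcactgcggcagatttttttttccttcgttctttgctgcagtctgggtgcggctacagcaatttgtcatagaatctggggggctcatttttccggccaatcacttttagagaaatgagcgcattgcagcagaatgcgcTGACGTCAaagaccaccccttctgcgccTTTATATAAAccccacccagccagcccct
Peg3 chr7:6730420-6730669, minus strand: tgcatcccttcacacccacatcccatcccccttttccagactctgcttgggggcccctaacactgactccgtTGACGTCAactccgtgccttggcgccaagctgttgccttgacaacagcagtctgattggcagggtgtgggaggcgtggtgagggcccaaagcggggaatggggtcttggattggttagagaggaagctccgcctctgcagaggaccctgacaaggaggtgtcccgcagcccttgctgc
Igf2bp3 chr6:49214940-49215204, minus strand: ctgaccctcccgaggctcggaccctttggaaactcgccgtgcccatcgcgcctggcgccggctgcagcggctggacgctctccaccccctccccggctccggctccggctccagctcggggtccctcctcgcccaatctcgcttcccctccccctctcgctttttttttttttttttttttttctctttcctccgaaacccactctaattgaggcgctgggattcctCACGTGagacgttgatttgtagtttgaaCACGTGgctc
In the *Igf2bp3* window the E-box stands at -23 to -18 and again at 6 to 11 from the RefSeq start. Among all 32851 windows 7.15% held the E-box and 0.594% held it more than once. In *Meg3* the cyclic AMP response element lies at -57 to -50, upstream of TATA boxes on both strands that overlap at -29 to -20, and in *Peg3* it lies at -178 to -171. That element occurred in 1.79% of all windows, the TATA box in 13.6%. *Afp* has GTTAAT at -105 to -100, letters found in 7.10% of windows, and a TATA box at -7 to -2 from a RefSeq start that lies 23 bases before the GENCODE start. A match describes the letters only.

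Of the 10 genes, 7 had a mean count of at least 10 and were tested, and *Igf2*, *Dlk1* and *Scd4* were too low. *Igf2bp3* reached that mean only through Flcn KO mice on MCD, which held 605 of its 717 reads (mean 7 in the other 16 libraries), so the counts and medians over the tested members below describe them and support nothing. Per kilobase of exon, which allows levels of different genes to be compared, *Cdkn1c* led the 7 tested genes in Cre mice on chow with 1.35 CPM per kb, ahead of *Afp* at 0.570 and *Meg3* at 0.505 CPM per kb. In Cre mice on MCD the order was *Afp* at 56.7, *H19* at 10.5 and *Cdkn1c* at 6.25 CPM per kb. In Flcn KO mice on chow *H19* was first at 4.60 CPM per kb, which rested on 1 mouse. In Flcn KO mice on MCD *Afp* was at 54.6 CPM per kb and *H19* at 4.81, followed by *Cdkn1c* at 3.35, *Peg3* at 3.23 and *Gpc3* at 2.81 CPM per kb. Among the tested genes *Igf2bp3* was lowest on both diets in Cre mice, at 0.00751 and 0.0292 CPM per kb, and *Meg3* was lowest in Flcn KO mice on MCD at 0.195 CPM per kb.

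**Figure D1:**
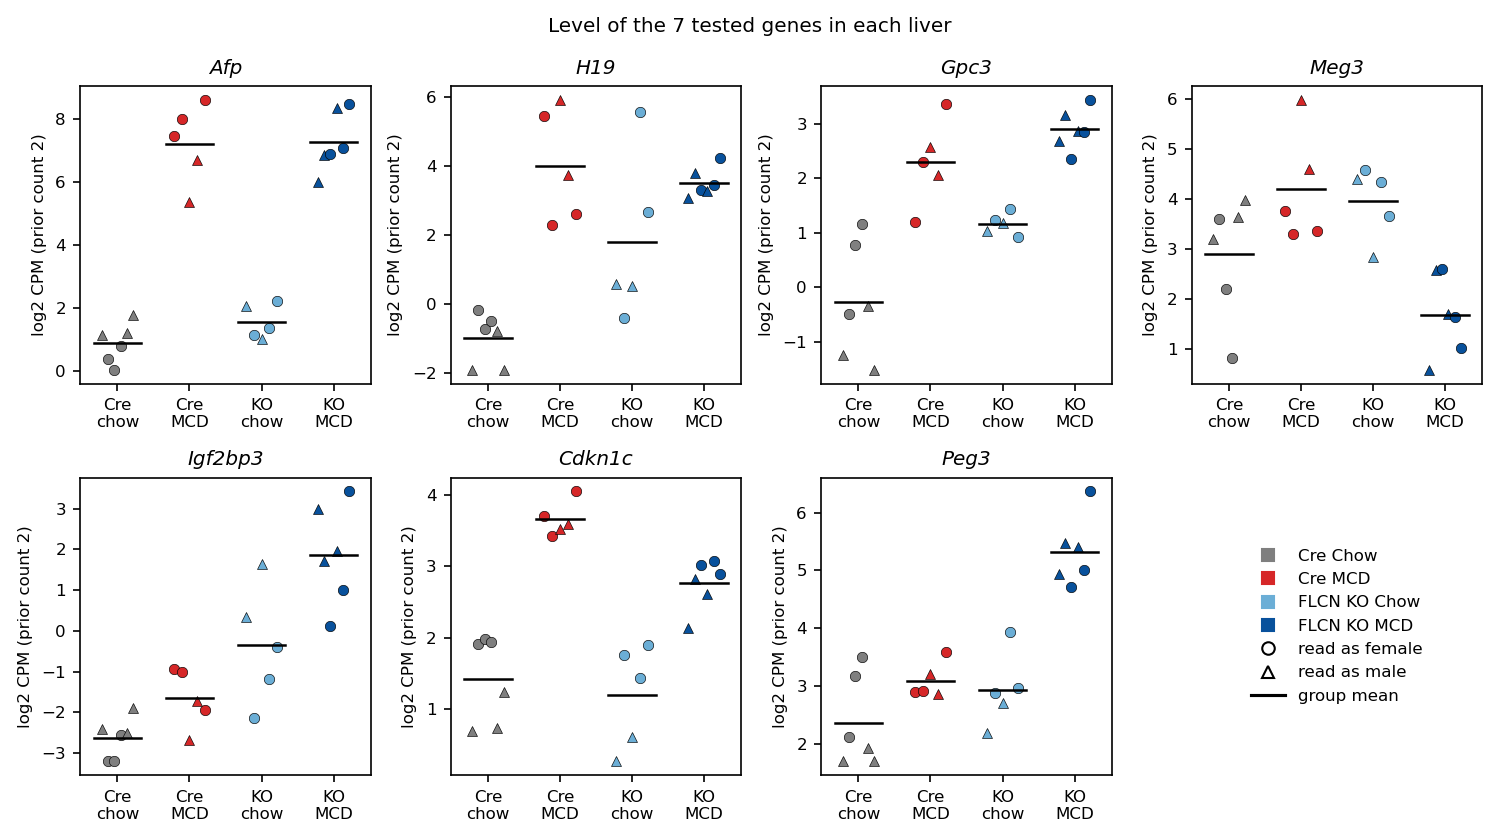
Level of each of the 7 tested genes in every liver, as log2 CPM with a prior count of 2 on the y axis, for the 4 groups on the x axis (KO is FLCN KO); circles are livers read as female, triangles livers read as male, and lines are group means. The MCD livers sit above the chow livers of the same genotype for *Afp*, *Gpc3* and *Cdkn1c*, while *Meg3* is lowest and *Peg3* and *Igf2bp3* are highest in Flcn KO mice on MCD.

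The MCD diet raised most of the tested members. In Cre mice *Afp*, *H19*, *Gpc3*, *Meg3* and *Cdkn1c* rose, which made 5 of 7 members, where 57.5% of all tested genes were called in this comparison and 29.3% were called higher and 28.2% lower. The median log2 fold change was 2.20 over the 7 members and 0.01 over all genes. In Flcn KO mice *Afp*, *Gpc3*, *Igf2bp3*, *Cdkn1c* and *Peg3* rose and *Meg3* fell, 6 of 7 members beside 45.0% of all genes (22.5% higher and 22.5% lower), with a median of 1.81 against 0.00437. Mice on the 2 diets did not overlap for 4 members in Cre mice (32.5% of all genes) and for 5 members in Flcn KO mice (29.2% of all genes).

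The genotype moved fewer members. On chow *H19* and *Igf2bp3* were higher in Flcn KO mice, 2 of 7 members beside 8.62% of all genes (5.52% higher and 3.10% lower), and neither separated the groups without overlap (0 of 7 members, 6.94% of all genes). On MCD *Igf2bp3* and *Peg3* were higher and *Meg3* and *Cdkn1c* lower in Flcn KO mice, 4 of 7 members beside 16.6% of all genes (8.06% higher and 8.53% lower). All 4 separated the genotypes without overlap, as did 8.61% of all genes. The diet response differed between the genotypes, by the interaction term of the same fit, for *H19*, *Meg3* and *Peg3*, 3 of 7 members beside 8.83% of all genes (3.29% positive and 5.54% negative). Without the 5 libraries that carried both *Xist* and Y-linked reads the interaction passed for 0 members by edgeR (adjusted p = 0.113, 0.0626 and 0.0685 for *H19*, *Meg3* and *Peg3*), and the genotype called 1 member on chow and 3 on MCD. Of all genes that fit called 84 for the interaction, and 463 and 1194 for the genotype on chow and on MCD. With all libraries these were 1242, 1212 and 2333 genes. Leaving *Igf2bp3* out, 5 and 5 of 6 members were called for the diet in Cre and Flcn KO mice, 1 and 3 for the genotype on chow and on MCD, and 3 for the interaction. The comparisons share groups of mice, so their counts are not independent.

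**Figure D2:**
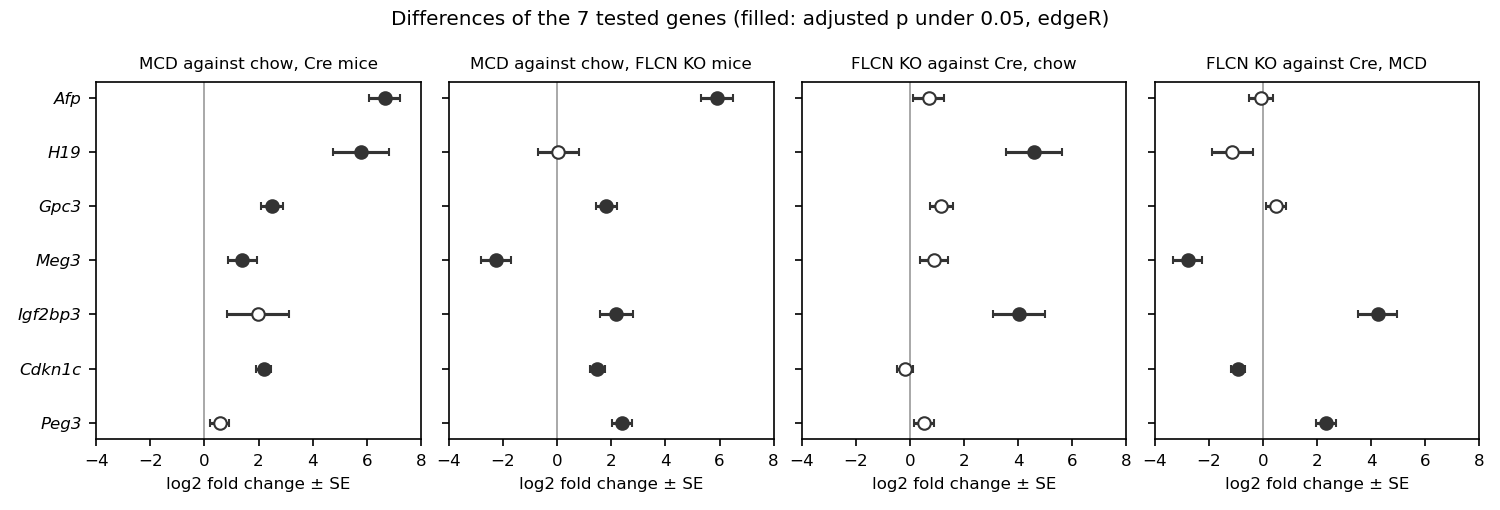
Log2 fold change (x axis) of each tested gene (y axis) in the 4 comparisons, with bars of 1 SE worked out from the F statistic of edgeR. Filled points have an adjusted p under 0.05. *Afp* shows the largest difference with diet in both genotypes, 6.66 and 5.91, and *Meg3* is right of 0 with diet in Cre mice and left of 0 in Flcn KO mice.

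*Afp* (ENSMUSG00000054932, chr5:90490737-90508907) encodes alpha-fetoprotein, the main serum protein of the fetal liver and a marker of liver tumours. It lay between 0.925 and 3.37 CPM in Cre mice on chow, with a median of 1.89 CPM, and at 173, 251, 40.6, 102 and 388 CPM in Cre mice on MCD. The ranges were far apart, with a log2 fold change of 6.66 (SE 0.585, adjusted p = 6.6e-09 by edgeR; exact permutation p = 0.00216), which is 101-fold. Flcn KO mice on chow had 4.12, 2.14, 1.95, 2.48 and 4.57 CPM, and those on MCD had 63.5 to 353 CPM with a median of 127 CPM. Here too no chow liver reached an MCD liver, and the difference was 5.91 on the log2 scale (SE 0.597, adjusted p = 1.0e-07 by edgeR), or 60.3-fold. The genotypes overlapped on both diets. Their log2 fold changes were 0.69 on chow (SE 0.577, adjusted p = 0.504) and -0.05 on MCD (SE 0.450, adjusted p = 0.959, edgeR), so an *Afp* difference between the genotypes was not detected at this spread. These are whole livers, in which fewer cells of a type and less RNA per cell cannot be told apart.

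*Gpc3* (ENSMUSG00000055653, chrX:52272426-52613950) encodes glypican 3, a heparan sulfate proteoglycan of the cell surface found in the fetal liver and in liver cancer. In Cre mice on chow it ranged from 0.241 to 2.13 CPM with a median of 0.641 CPM, and on MCD it was at 2.18, 4.82, 5.85, 4.07 and 10.2 CPM. The lowest MCD liver was just above the highest chow liver. *Gpc3* rose by 2.49 on the log2 scale (SE 0.408, adjusted p = 2.6e-05 by edgeR; exact permutation p = 0.00433). In Flcn KO mice the level was 1.94, 2.25, 2.15, 2.59 and 1.78 CPM on chow and 4.97 to 10.8 CPM, with a median of 7.17 CPM, on MCD, again without overlap and with a log2 fold change of 1.81 (SE 0.391, adjusted p = 7.1e-04 by edgeR). The genotypes did not pass the test: on chow 2.14 ± 0.310 CPM (SD, n = 5) in Flcn KO mice stood beside 0.928 ± 0.763 CPM (SD, n = 6) in Cre mice (log2 fold change 1.16, adjusted p = 0.0922 by edgeR). That difference passed without Cre Chow replicate 4 (1.58, adjusted p = 0.0227) and in DESeq2 (1.18, adjusted p = 0.0352).

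*H19* (ENSMUSG00000000031, chr7:142575529-142578143) is a maternally expressed long noncoding RNA, abundant in fetal liver and muscle, that shares an imprinted domain with *Igf2*. Cre mice on chow had 0.158 to 0.788 CPM with a median of 0.483 CPM. On MCD the Cre livers held 43.9, 4.78, 60.9, 13.4 and 5.99 CPM, all above every chow liver but more than 10-fold apart from each other. The diet difference was a log2 fold change of 5.77 (SE 1.04, adjusted p = 7.1e-05 by edgeR; exact permutation p = 0.00216). The highest of these livers is the muscle-rich Cre MCD replicate 3, and without it the difference was 5.17 (adjusted p = 2.1e-04 by edgeR).

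In Flcn KO mice on chow *H19* was at 1.40, 0.653, 1.34, 46.9 and 6.30 CPM, and 1 of the 5 livers, replicate 4, carried most of the reads. On MCD the 6 livers were close together, from 8.31 to 18.7 CPM with a median of 10.3 CPM. The chow mean was 11.3 ± 20.0 CPM (SD, n = 5), the MCD mean was 11.8 ± 3.85 CPM (SD, n = 6), and the diet difference was 0.05 (SE 0.772, adjusted p = 0.966 by edgeR). Without replicate 4 of the chow group *H19* was higher on MCD in Flcn KO mice too, by 2.25 (adjusted p = 0.0103 by edgeR). The same liver decided the genotype difference on chow, which was 4.60 with it (SE 1.04, adjusted p = 0.00662 by edgeR; exact permutation p = 0.00433) and 2.40 without it (adjusted p = 0.101), and limma-voom did not call that difference (3.05, adjusted p = 0.307). On MCD the genotypes overlapped, with a log2 fold change of -1.12 (SE 0.759, adjusted p = 0.345 by edgeR). The interaction was -5.72 (SE 1.29, adjusted p = 0.00986 by edgeR) and -3.53 without the high chow liver (adjusted p = 0.0380), -5.13 without Cre MCD replicate 3 (adjusted p = 0.0156), and limma-voom did not call it (-3.54, adjusted p = 0.240). That liver is also 1 of the 5 that carried both *Xist* and Y-linked reads.

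*Igf2* (ENSMUSG00000048583, chr7:142650766-142666816), the fetal growth factor next to *H19*, had 4 reads in all, 1 each in 4 of the 22 libraries. Those were Cre Chow replicates 3 and 4 and Cre MCD replicates 1 and 3. None of the 11 Flcn KO libraries held a read in 199793687 reads, and a count of 0 allows a level of up to 0.0150 CPM (3 counts of all reads, unscaled, counting error only). *Igf2* was therefore not detectable as a change at this depth in any comparison, in livers where *H19* reached 60.9 CPM. Of its exon bases 62.8% are also annotated to *Gm49394* on the same strand, a gene with 0 reads in every library, and reads that fit both genes may not have been counted for either.

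*Igf2bp3* (ENSMUSG00000029814, chr6:49085223-49214957) encodes an RNA-binding protein of the fetus and of tumours that was named for binding *Igf2* mRNA. In Cre mice it was nearly silent, with 5 reads over 6 livers on chow and 27 reads over 5 livers on MCD. Flcn KO mice on chow had 1.17, 0.119, 3.02, 0.33 and 0.646 CPM, a total of 80 reads, and those on MCD had 0.972 to 10.7 CPM with a median of 3.49 CPM, a total of 605 reads. On MCD every Flcn KO mouse was above every Cre mouse, whose levels were 0.411, 0.387, 0.0468, 0.194 and 0.153 CPM. That genotype difference was 4.24 (SE 0.718, adjusted p = 3.9e-04 by edgeR; exact permutation p = 0.00433), and the ratio of pooled reads, scaled to the library totals after TMM, was 19.2 (95% counting interval 13.1 to 29.4). The interval leaves out the spread between mice. On chow the groups overlapped at their edges, with a log2 fold change of 4.03 (SE 0.970, adjusted p = 0.0107 by edgeR; exact permutation p = 0.00433), a read ratio of 17.5 (95% counting interval 7.20 to 55.4). At a mean count of at least 1, which *Igf2bp3* passes also in the libraries outside Flcn KO mice on MCD, the differences were 4.26 on MCD and 4.04 on chow (adjusted p = 3.7e-04 and 0.0116 by edgeR). The chow call was lost without FLCN KO Chow replicate 3 (3.12, adjusted p = 0.0523), in limma-voom (3.09, adjusted p = 0.183) and without the 5 chow libraries of low unique mapping (3.82, adjusted p = 0.227).

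Diet also raised *Igf2bp3* in Flcn KO mice, by 2.19 (SE 0.62, adjusted p = 0.00669 by edgeR; exact permutation p = 0.0281), with overlap between the diets. At a mean count of at least 1 the difference was 2.19 as well (adjusted p = 0.00777 by edgeR). The difference was 3.10 without FLCN KO Chow replicate 3 (adjusted p = 6.9e-04) and 3.66 without the 5 chow libraries of low unique mapping (adjusted p = 0.00104), and the exact permutation test on CPM in place of log2 CPM gave p = 0.0584. The fit without the low-mapping libraries lacks all chow livers read as male, among them the Flcn KO chow livers at 1.17 and 3.02 CPM. In Cre mice the diet difference was 1.98 (SE 1.13, adjusted p = 0.138 by edgeR; exact permutation p = 0.0325) and did not pass in edgeR. DESeq2 called it (2.08, adjusted p = 0.0467), as did the edgeR fit of only the groups compared (1.97, adjusted p = 0.0321). The interaction for *Igf2bp3* was 0.21 (SE 3.37, adjusted p = 0.979 by edgeR) and did not pass, and it ranged from -0.25 to 1.12 with a mouse left out in turn. A dependence of the genotype difference on diet was not detected, which does not show that the difference was the same on both diets. On the opposite strand *Malsu1* shares 18.7% of the exon bases of *Igf2bp3*, and the strand setting of the counting is not given in the sources used here. *Malsu1* had 241 to 793 reads per library and differed between the genotypes by -0.21 on chow (adjusted p = 0.341) and 0.16 on MCD (adjusted p = 0.412, edgeR).

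*Meg3* (ENSMUSG00000021268, chr12:109541001-109571726) is a maternally expressed long noncoding RNA at the start of a long run of noncoding transcripts in the *Dlk1* imprinted domain. In Cre mice on chow it was at 1.64 to 15.6 CPM with a median of 10.4 CPM, and Flcn KO mice on chow had 21.0, 23.8, 7.04, 20.1 and 12.5 CPM. These groups overlapped, with a log2 fold change of 0.89 (SE 0.523, adjusted p = 0.318 by edgeR). On MCD the Cre livers held 13.4, 9.68, 63.3, 24.2 and 10.1 CPM, and the Flcn KO livers 1.38, 5.80, 5.94, 3.12, 2.98 and 1.91 CPM. Each Flcn KO mouse on MCD was below each Cre mouse on MCD and below each Flcn KO mouse on chow.

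The genotype difference of *Meg3* on MCD was -2.78 (SE 0.545, adjusted p = 0.00135 by edgeR; exact permutation p = 0.00216), and the fall with diet in Flcn KO mice was -2.26 (SE 0.543, adjusted p = 0.00182 by edgeR; exact permutation p = 0.00216). In Cre mice the rise with diet was 1.41 (SE 0.520, adjusted p = 0.0250 by edgeR), the groups overlapped, and the exact permutation test gave p = 0.110. That rise rested on Cre MCD replicate 3, the muscle-rich liver, and was 0.66 without it (adjusted p = 0.232); it was also lost without Cre Chow replicate 3 (1.26, adjusted p = 0.0545). Without Cre MCD replicate 3 the genotype difference on MCD was -2.03 (adjusted p = 0.00596) and the interaction moved from -3.67 (SE 0.752, adjusted p = 0.00510) to -2.92 (adjusted p = 0.00843, edgeR).

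Other transcripts of the same domain were set beside *Meg3*. *Rian*, a maternally expressed noncoding RNA downstream of *Meg3* (chr12:109603940-109661716), was at 5.64 ± 2.68 CPM (SD, n = 5) in Flcn KO mice on chow and at 0.590 ± 0.224 CPM (SD, n = 6) on MCD. It fell with diet in Flcn KO mice by 3.24 on the log2 scale (SE 0.621, adjusted p = 2.3e-04 by edgeR) and was lower than in Cre mice on MCD (-3.29, SE 0.618, adjusted p = 9.6e-04 by edgeR). Without Cre MCD replicate 3, the muscle-rich liver, the latter difference of *Rian* was -2.14 (adjusted p = 0.00387 by edgeR). *Mirg* (chr12:109729764-109749460), which hosts microRNAs further downstream, was under the count minimum, with 24 and 89 reads in Cre mice on chow and MCD and 64 and 18 reads in Flcn KO mice. At a mean count of at least 1 *Mirg* was lower in Flcn KO than in Cre mice on MCD (-2.49, adjusted p = 0.00668 by edgeR). Cre MCD replicate 3 held 45 of the 89 *Mirg* reads, and without it the difference was -1.79 (adjusted p = 0.0345 by edgeR). Over the 22 libraries *Meg3* and *Rian* had a Pearson correlation of 0.92, and 0.85 after the group means were removed; the points share library and depth.

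*Dlk1* (ENSMUSG00000040856, chr12:109452823-109463336), the paternally expressed membrane protein of the same domain and a marker of hepatoblasts, had 27 reads in 14 of 22 libraries and never more than 5 in 1 library. Its reads were 2 for Cre mice on chow, 15 for Cre mice on MCD, 4 in Flcn KO mice on chow and 6 in Flcn KO mice on MCD. It was too low to test at a mean count of 10.

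*Cdkn1c* (ENSMUSG00000037664, chr7:143458339-143461050) encodes p57, an inhibitor of cyclin-dependent kinases that is expressed from the maternal copy. Cre mice on chow had 1.5 to 3.82 CPM with a median of 2.94 CPM, and Cre mice on MCD had 13, 10.7, 11.5, 12.0 and 16.6 CPM. The rise was 2.20 (SE 0.278, adjusted p = 1.0e-06 by edgeR; exact permutation p = 0.00216). Flcn KO mice had 1.09, 3.26, 1.41, 2.59 and 3.61 CPM on chow and 4.28 to 8.34 CPM with a median of 7.15 CPM on MCD. They rose by 1.49 (SE 0.287, adjusted p = 2.4e-04 by edgeR), again without overlap between the diets, and the interaction of -0.71 did not pass (adjusted p = 0.283).

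On MCD all Flcn KO mice were below all Cre mice for *Cdkn1c*, by -0.90 (SE 0.262, adjusted p = 0.0213 by edgeR; exact permutation p = 0.00216). The call was lost without Cre MCD replicate 5, the highest liver (-0.79, adjusted p = 0.0571), and without the 5 libraries that carried both *Xist* and Y-linked reads (-0.94, adjusted p = 0.0725). On chow the genotypes overlapped (-0.19, SE 0.295, adjusted p = 0.744 by edgeR). *Gm44732*, on the opposite strand, shares 30.7% of the exon bases of *Cdkn1c* and held 0 to 5 reads per library.

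*Peg3* (ENSMUSG00000002265, chr7:6703892-6730431) encodes a zinc finger protein that is expressed from the paternal copy. It lay from 3.13 to 11.2 CPM with a median of 3.98 CPM in Cre mice on chow, at 7.36, 7.40, 9.13, 7.12 and 12.0 CPM in Cre mice on MCD and at 4.43, 7.24, 6.44, 15.1 and 7.70 CPM in Flcn KO mice on chow. These 3 groups overlapped each other. Flcn KO mice on MCD had *Peg3* at 30.5, 44.3, 26.2, 42.5, 32.2 and 82.8 CPM, above every other liver of the series. *Peg3* rose with diet in Flcn KO mice by 2.39 (SE 0.370, adjusted p = 2.3e-05 by edgeR; exact permutation p = 0.00216), and on MCD it was higher than in Cre mice by 2.33 (SE 0.366, adjusted p = 1.8e-04 by edgeR; exact permutation p = 0.00216).

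In Cre mice the diet difference of *Peg3* was 0.57 (SE 0.362, adjusted p = 0.188 by edgeR), which passed without Cre Chow replicate 4 (0.87, adjusted p = 0.0416), and on chow the genotype difference was 0.51 (SE 0.366, adjusted p = 0.429 by edgeR). The interaction was 1.82 (SE 0.511, adjusted p = 0.0296 by edgeR), and leaving out a mouse gave adjusted p-values of 0.0148 to 0.0564, over 0.05 for 6 of the 22 mice. Those were Cre Chow replicates 3 and 4, Cre MCD replicates 1 and 4, FLCN KO Chow replicate 5 and FLCN KO MCD replicate 6. The neighbours of *Peg3* were under the count minimum and were looked at after their reads had been seen. *Zim1*, maternally expressed (chr7:6671269-6696450), had 2 reads for Cre mice on chow, 8 for Cre mice on MCD, 1 in Flcn KO mice on chow and 51 in Flcn KO mice on MCD. *Usp29*, paternally expressed (chr7:6730578-6967219), had 0, 2, 3 and 28 reads in the same order, so both neighbours had most of their reads in the group in which *Peg3* was highest.

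**Figure D3:**
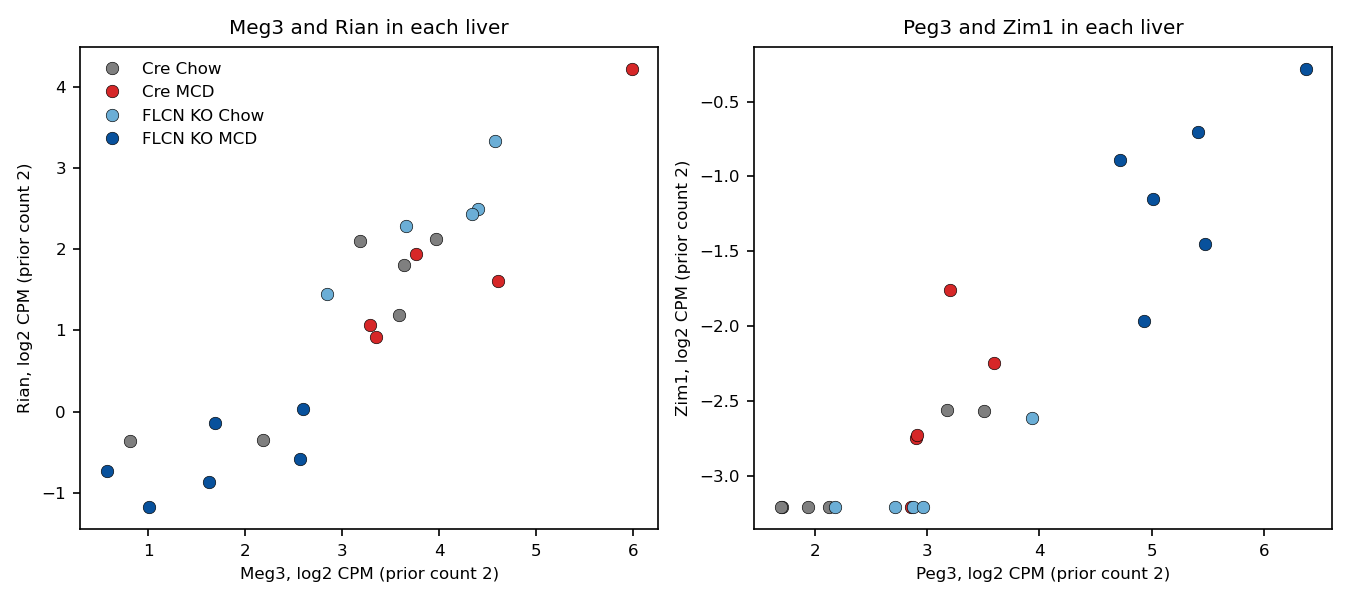
Left, *Meg3* (x axis) against *Rian* (y axis); right, *Peg3* (x axis) against *Zim1* (y axis); all in log2 CPM with a prior count of 2, 1 point per liver, coloured by group. *Meg3* and *Rian* lie along 1 line, with Flcn KO mice on MCD at its low end, and the 6 Flcn KO mice on MCD hold the highest *Peg3* levels and 51 of the *Zim1* reads; the lowest row of points on the right has 0 *Zim1* reads.

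*Scd4* (ENSMUSG00000050195, chr19:44333092-44346743) had 21 reads in 13 of 22 libraries, at most 5 in 1 library, and was too low to test. The reads were 1 and 11 in Cre mice on chow and MCD and 4 and 5 in Flcn KO mice. Among its relatives, which make monounsaturated fatty acids, *Scd1* fell with MCD from 12902 ± 5957 CPM (SD, n = 6) to 151 ± 184 CPM (SD, n = 5) in Cre mice, a log2 fold change of -6.42 (SE 0.802, adjusted p = 8.6e-07 by edgeR). The fall of *Scd1* in Flcn KO mice was -6.13 (SE 0.735, adjusted p = 9.7e-07 by edgeR). Without Cre MCD replicate 3 the fall of *Scd1* in Cre mice was -7.47 (adjusted p = 8.5e-08). *Scd2* fell in Flcn KO mice by 1.32 on the log2 scale (SE 0.412, adjusted p = 0.0124 by edgeR), a call lost without FLCN KO Chow replicate 4 (-0.72, adjusted p = 0.119) and in limma-voom (-0.88, adjusted p = 0.0980).

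A list of 60 other imprinted genes, of which 40 were tested, did not move as a block. With MCD 13 rose and 10 fell in Cre mice, and 11 rose and 8 fell in Flcn KO mice, with medians of 0.00207 and -0.07 on the log2 scale. The called shares, 57.5% and 47.5%, stood beside 57.5% and 45.0% of all tested genes. Without the libraries with *Xist* and Y-linked reads the counts in Flcn KO mice were 4 and 8. *Airn*, the noncoding RNA of the *Igf2r* cluster, rose in both genotypes (2.89 and 1.78; SE 0.359 and 0.370; adjusted p = 8.0e-07 and 4.9e-04 by edgeR), from 0.464 ± 0.243 to 3.55 ± 0.584 CPM (SD) in Cre mice. *Mest*, a paternally expressed gene of the hydrolase fold, fell in Flcn KO mice (-1.46, SE 0.277, adjusted p = 2.1e-04), and *Ppp1r9a* (-1.81, SE 0.497, adjusted p = 0.00372) and *Tfpi2*, a protease inhibitor (-1.56, SE 0.122, adjusted p = 1.4e-09, edgeR), fell in Cre mice. The *Ppp1r9a* call was lost without the 5 chow libraries of low unique mapping (-0.20, adjusted p = 0.465). For this list and those below, up to 3 called genes with the largest change are named per comparison. A gene named for 1 genotype may therefore have changed in the other genotype too.

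Between the genotypes 5 other imprinted genes were higher and 1 lower in Flcn KO mice on chow, and 4 higher and 3 lower on MCD. These were 15% and 17.5% of the list, beside 8.62% and 16.6% of all tested genes. The paternally expressed *Peg10*, derived from a retrotransposon, was higher on both diets, by 2.36 on chow (SE 0.622, adjusted p = 0.0200 by edgeR) and 2.22 on MCD (SE 0.661, adjusted p = 0.0241 by edgeR). Its levels were 0.645 ± 0.496 (SD, n = 6) and 3.31 ± 2.90 CPM (SD, n = 5) on chow in Cre and Flcn KO mice. The *Peg10* call was lost on chow without FLCN KO Chow replicate 3 or 4 (adjusted p = 0.0721 and 0.0769), on MCD without Cre MCD replicate 1 or 4 or FLCN KO MCD replicate 4 (adjusted p = 0.0605 to 0.0643), and on both diets in limma-voom (2.25 and 2.16, adjusted p = 0.0727 and 0.0644). Its neighbour *Sgce*, a sarcoglycan, was higher on chow by 1.37 (SE 0.244, adjusted p = 8.4e-04 by edgeR), and *Gatm*, an enzyme of creatine synthesis, by 0.78 (SE 0.245, adjusted p = 0.0499 by edgeR). The *Gatm* call did not hold in 16 of the 22 fits that left out a mouse (adjusted p up to 0.125), and that of *Sgce* was lost without the 5 chow libraries of low unique mapping (1.08, adjusted p = 0.0848). *Grb10*, an adaptor that dampens insulin signalling, was higher on MCD by 1.16 (SE 0.287, adjusted p = 0.00743 by edgeR). Without the 5 chow libraries of low unique mapping 1 gene was called on chow in place of 6, and without the libraries with *Xist* and Y-linked reads 2 were called on chow and 4 on MCD. Leaving out FLCN KO Chow replicate 4 left 3 called on chow, and leaving out Cre MCD replicate 4 or FLCN KO MCD replicate 6 left 3 or 4 on MCD.

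Of 38 other genes of the fetal liver or its tumours 27 were tested, and most rose with the diet. This list too was chosen with earlier results of these data known, so its counts, shares and medians describe it and support nothing. With MCD 21 rose and 2 fell in Cre mice (median 1.68), and 14 rose and 2 fell in Flcn KO mice (median 1.08), beside medians of 0.01 and 0.00437 over all genes. Those called were 85.2% and 59.3% of the list, where 57.5% and 45.0% of all genes were called (29.3% and 22.5% higher). *Ly6d*, a small membrane protein, rose in both (5.36 and 4.11; SE 0.738 and 0.730; adjusted p = 3.1e-06 and 1.0e-04 by edgeR), and *Fbp2*, a fructose bisphosphatase, rose by 4.15 in Flcn KO mice (SE 0.585, adjusted p = 7.2e-06). *Cyp3a16*, a cytochrome P450 of fetal and young liver, fell in Cre mice (-6.24, SE 1.65, adjusted p = 0.00284), and *Tff3*, a secreted trefoil peptide, fell in Flcn KO mice (-4.32, SE 1.09, adjusted p = 0.00269, edgeR). Limma-voom called neither (-3.20 and -2.60, adjusted p = 0.35 and 0.162 for *Cyp3a16* and *Tff3*), and *Tff3* was at -0.72 without the 5 chow libraries of low unique mapping (adjusted p = 0.477). Without Cre Chow replicate 3 *Cyp3a16* was at -5.53, *Tff3* was at -3.52 without FLCN KO Chow replicate 3 and -5.02 without FLCN KO MCD replicate 1, and *Ly6d* was at 7.29 in Cre mice without Cre Chow replicate 5.

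The genotype showed in *Bex2*, a small X-linked protein of the brain and of some tumours (chrX:136066564-136068236). Cre mice on chow had 0.0676 to 0.547 CPM with a median of 0.133 CPM, and Flcn KO mice on chow had 16.6, 5.81, 11.7, 23.8 and 15.1 CPM. On MCD the Cre livers held 4.07, 6.93, 2.86, 3.88 and 12.3 CPM and the Flcn KO livers 88.7 to 174 CPM with a median of 141 CPM. The genotypes did not overlap on either diet, and *Bex2* differed by 6.06 on chow (SE 0.509, adjusted p = 6.1e-08 by edgeR) and by 4.49 on MCD (SE 0.380, adjusted p = 9.3e-08 by edgeR). Without Cre Chow replicate 4 the chow difference of *Bex2* was 6.67 (adjusted p = 2.2e-07).

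Of the same list 8 genes were higher and 0 lower in Flcn KO mice on chow (5 and 0 without the 5 chow libraries of low unique mapping, 5 and 0 without the libraries with *Xist* and Y-linked reads, 5 in all under a replicate block and 4 in all without FLCN KO Chow replicate 4), and 4 were higher and 5 lower on MCD. The called genes were 29.6% and 33.3% of the list, beside 8.62% and 16.6% of all genes. On chow *Bex4* (2.86, SE 0.607, adjusted p = 0.00404) and *Cdkn3*, a phosphatase of the cell cycle (2.30, SE 0.691, adjusted p = 0.0404, edgeR), were among the 8. Limma-voom called neither (2.59 and 2.31, adjusted p = 0.0705 and 0.163), and *Cdkn3* also did not pass in 9 of the 22 fits that left out a mouse (adjusted p up to 0.0882). On MCD *Akr1c18*, a steroid reductase, was lower (-4.46, SE 0.509, adjusted p = 4.1e-06 by edgeR), after a rise of 6.71 with diet in Cre mice (SE 0.631, adjusted p = 1.8e-08 by edgeR). Without Cre MCD replicate 5 these values of *Akr1c18* were -3.71 (adjusted p = 7.6e-06) and 5.97 (adjusted p = 1.3e-08). *Tspan8*, a tetraspanin, was lower as well (-2.30, SE 0.554, adjusted p = 0.00633 by edgeR), a call lost without the libraries with *Xist* and Y-linked reads (-2.21, adjusted p = 0.0541). The interaction passed for 6 of the 27 genes, or 22.2% beside 8.83% of all genes, all negative, among them *Akr1c18*, *Cdkn3* and *Lpl*, the lipoprotein lipase. It passed for 3 genes in limma-voom, for 10 in DESeq2 and for 1 without the libraries with *Xist* and Y-linked reads. The *Cdkn3* interaction did not hold in 12 of the 22 fits that left out a mouse, and limma-voom called neither it nor that of *Akr1c18* (adjusted p = 0.183 and 0.0697).

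**Figure D4:**
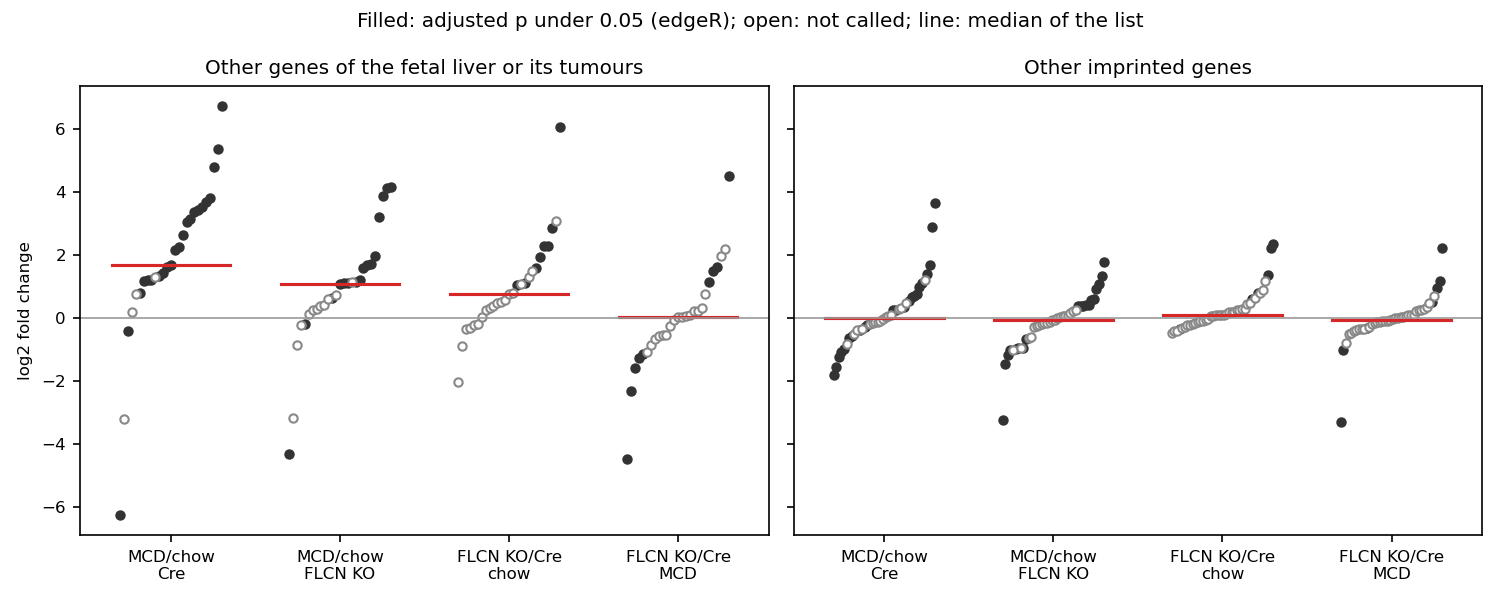
Log2 fold changes (y axis) of the 27 tested fetal liver genes (left) and the 40 tested imprinted genes (right) outside the member group, in 4 comparisons (x axis), 1 point per gene; filled points passed edgeR at an adjusted p under 0.05 and lines are list medians. With MCD in Cre mice the fetal liver list has 21 filled points above 0 and a median of 1.68, while the imprinted list has filled points on both sides of a median of 0.00207.

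Around *Igf2*, 14 of 17 genes of the IGF axis were tested. In Cre mice 4 rose and 4 fell with MCD, and in Flcn KO mice 2 rose and 7 fell (1 and 3 without the libraries with *Xist* and Y-linked reads). The called shares were 57.1% and 64.3%, beside 57.5% and 45.0% of all genes, and the list medians were -0.09 and -0.45. *Ghr*, the growth hormone receptor, fell by 2.33 on the log2 scale in Cre mice (SE 0.185, adjusted p = 1.7e-09) and by 1.60 in Flcn KO mice (SE 0.174, adjusted p = 2.7e-07, edgeR). The binding protein *Igfbp1* rose in both (2.18 and 1.75; SE 0.534 and 0.546; adjusted p = 0.00150 and 0.0120 by edgeR), *Igfbp6* rose in Cre mice (2.42, SE 0.510, adjusted p = 3.9e-04) and *Igfbp2* in Flcn KO mice (1.42, SE 0.212, adjusted p = 1.5e-05, edgeR). Without Cre MCD replicate 3 the rise of *Igfbp6* was 1.79 (adjusted p = 0.00226), and the *Igfbp1* call in Flcn KO mice was lost without the 5 chow libraries of low unique mapping (1.54, adjusted p = 0.0589) and without those with *Xist* and Y-linked reads (1.53, adjusted p = 0.0705). Between the genotypes 0 were called on chow by edgeR, limma-voom or DESeq2 (0 at an unadjusted p under 0.05 in edgeR), and on MCD 3 were higher and 2 lower in Flcn KO mice, with *Igfals*, the partner of circulating IGF complexes, at 1.08 (SE 0.259, adjusted p = 0.00614), *Ghr* at 0.64 (SE 0.175, adjusted p = 0.0148) and *Igfbp6* at -1.56 (SE 0.476, adjusted p = 0.0277, edgeR). The 5 called were 35.7% of the list, beside 16.6% of all genes. Without the libraries with *Xist* and Y-linked reads those counts on MCD were 0 and 1, and the 5 fell to 2 without FLCN KO MCD replicate 6 and under a replicate block, and to 3 without Cre MCD replicate 4, FLCN KO MCD replicate 2 or FLCN KO MCD replicate 3. The *Igfbp6* difference was -0.93 without Cre MCD replicate 3 (adjusted p = 0.145) and did not pass without FLCN KO MCD replicate 1, 2 or 6 either (adjusted p = 0.0509 to 0.0528).

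Of 28 regulators of fetal liver genes and of imprints, 26 were tested. With MCD 5 rose and 13 fell in Cre mice, and 3 rose and 10 fell in Flcn KO mice (1 and 6 without the libraries with *Xist* and Y-linked reads). The called shares were 69.2% and 50%, beside 57.5% and 45.0% of all genes. *Zhx2*, known as a repressor of *Afp*, *H19* and *Gpc3* after birth, fell in Flcn KO mice by 0.84 on the log2 scale (SE 0.205, adjusted p = 0.00202 by edgeR). *Onecut1*, a hepatocyte factor, fell in both genotypes (-2.77 and -2.31; SE 0.628 and 0.599; adjusted p = 7.7e-04 and 0.00340 by edgeR), *Foxa2* fell in Cre mice (-1.44, SE 0.213, adjusted p = 7.4e-06) and *Foxa3* in Flcn KO mice (-0.79, SE 0.260, adjusted p = 0.0172, edgeR). *Onecut1* was at -1.92 in Cre mice without Cre Chow replicate 6 and at -1.55 in Flcn KO mice without FLCN KO Chow replicate 2. Its call in Flcn KO mice was lost without the libraries with *Xist* and Y-linked reads (-1.50, adjusted p = 0.0856). The *Foxa3* call was lost without FLCN KO Chow replicate 3 (-0.41, adjusted p = 0.136) or the 5 chow libraries of low unique mapping (-0.37, adjusted p = 0.128). *Uhrf1*, which brings the maintenance methyltransferase to replicating DNA, rose in Cre mice from 0.482 ± 0.248 to 4.68 ± 1.86 CPM (SD; 3.24, SE 0.420, adjusted p = 1.4e-06 by edgeR). On MCD *Uhrf1* was lower in Flcn KO mice (-1.70, SE 0.370, adjusted p = 0.00307 by edgeR). On chow its difference was 1.46 (SE 0.441, adjusted p = 0.0406 by edgeR), a call lost in limma-voom, under a replicate block, without the 5 chow libraries of low unique mapping (adjusted p = 0.274), without those with *Xist* and Y-linked reads (adjusted p = 0.250), and without Cre Chow replicate 1, 2, 4, 5 or 6 or FLCN KO Chow replicate 4 or 5 in turn (adjusted p = 0.0573 to 0.110). The proliferation markers *Mki67*, *Top2a*, *Cdk1*, *Ccnb1* and *Birc5* rose with MCD in Cre mice, 5 of 5 (3 of 5 without the 5 chow libraries of low unique mapping). Of all genes 57.5% were called there and 29.3% were called higher. With MCD in Flcn KO mice and between the genotypes on chow 0 of the 5 were called by edgeR, limma-voom or DESeq2 (0 and 1 at an unadjusted p under 0.05 in edgeR). On MCD 1 of the 5 was lower in Flcn KO mice and the interaction was negative for 1, beside 16.6% and 8.83% of all genes. These counts became 3 and 4 without Cre MCD replicate 3. Both were 0 without the libraries with *Xist* and Y-linked reads. Correlations of the 7 tested members with the proliferation sum over the 22 libraries ran from -0.0390 (*Peg3*) to 0.414 (*Cdkn1c*), and the part of proliferation in these values was not tested.

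Markers of other cells were counted beside the share of all tested genes called. That share was 57.5% with MCD in Cre mice and 45.0% with MCD in Flcn KO mice. Between the genotypes it was 8.62% on chow and 16.6% on MCD. Of 9 stellate cell and fibroblast genes 7 rose with MCD in Cre mice, and 7 were lower in Flcn KO than in Cre mice on MCD (6 and 4 without Cre MCD replicate 3). All 10 skeletal muscle genes rose with MCD in Cre mice and all 10 were lower in Flcn KO mice on MCD (9 and 2 without Cre MCD replicate 3). Of 6 cholangiocyte genes 3 rose with MCD in Cre mice and 0 were called in Flcn KO mice by edgeR, limma-voom or DESeq2 (0 at an unadjusted p under 0.05 in edgeR), and 1 was higher in Flcn KO mice on each diet (on MCD 0 without Cre MCD replicate 3). With MCD, of 6 endothelial genes 1 was higher and 3 were lower in Cre mice, 4 were lower in Flcn KO mice, and between the genotypes 1 was higher in Flcn KO mice on each diet. With the same diet 2 of 6 macrophage genes were higher and 1 was lower in Cre mice, 3 were lower in Flcn KO mice, and 2 were lower in Flcn KO than in Cre mice on MCD. *H19* and *Meg3*, which skeletal muscle is known to express, had correlations of 0.411 and 0.516 with the muscle sum over the 22 libraries, and the other 5 tested members ran from -0.217 (*Igf2bp3*) to 0.366 (*Cdkn1c*). Of the hepatocyte markers 4 of 6 fell with MCD in Cre mice and 5 of 6 in Flcn KO mice, *Alb* standing at 73293 ± 12729 CPM in the former (SD, n = 5) and 56677 ± 7047 CPM in the latter (SD, n = 6). The members called without Cre MCD replicate 3 were 4 and 6 for the diet in Cre and Flcn KO mice, and 2 and 4 for the genotype on chow and on MCD, where the same fit called 58.4%, 46.8%, 10.2% and 16.8% of all genes. Within mice read as female and within mice read as male, 2 or 3 livers per group and with no test, the genotype difference in mean log2 CPM on MCD was -1.72 and -3.69 for *Meg3*, 2.23 and 2.24 for *Peg3*, 2.81 and 4.44 for *Igf2bp3*, and -0.74 and -1.04 for *Cdkn1c*.

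**Figure D5:**
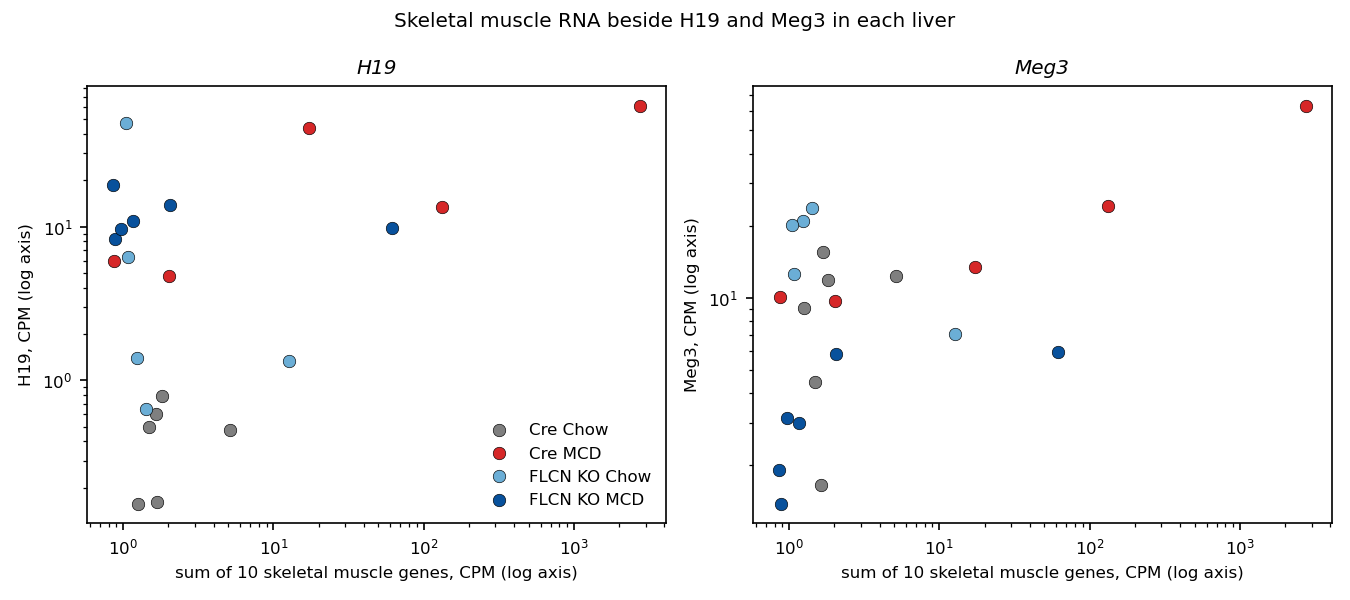
Sum of 10 skeletal muscle genes in CPM (x axis, log scale) against *H19* (left) and *Meg3* (right) in CPM (y axis, log scale), 1 point per liver, coloured by group. Cre MCD replicate 3 lies at 2740 CPM of muscle genes and holds the highest *H19* and *Meg3*, 60.9 and 63.3 CPM, while the Flcn KO chow liver with 46.9 CPM of *H19* has little muscle RNA.

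The genes whose log2 CPM followed each member most closely over the 22 libraries were found by Pearson correlation, a description in which the group differences enter and all points share library and depth. After each gene is its correlation and then, after a comma, the one with group means removed. *Afp* went with *Fam129a* (0.974, 0.533), *Psat1* (0.973, 0.557) and *Hist1h2ac* (0.971, 0.620), and *Gpc3* with *Mt1* (0.942, 0.719), *Gpat3* (0.933, 0.685) and *Cd36* (0.928, 0.639). *Cdkn1c* went with another imprinted RNA, *Airn* (0.938, 0.670), then *Cyp3a63-ps* (0.937, 0.864) and *Plpp1* (0.934, 0.716). *H19* went with *Tspan3* (0.929, 0.777), *Ptgfrn* (0.912, 0.683) and *Snn* (0.902, 0.696), and *Peg3* with *Wnt4* (0.934, 0.634), *Eps8* (0.911, 0.567) and *Ncoa7* (0.895, 0.457). *Igf2bp3* went with *Ostm1* (0.918, 0.716), *Atp6v1d* (0.909, 0.494), a subunit of the lysosomal proton pump, and *Cpne8* (0.900, 0.655). After *Rian*, the closest genes to *Meg3* were *Slc9a3r1* (0.760, 0.790) and *1810064F22Rik* (0.736, 0.580), below the 0.92 of *Rian*. Within the group, *Gpc3* and *Peg3* kept a correlation of 0.796 after the group means were removed (0.824 before).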

How the data were processed

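Liver mRNA libraries (KAPA mRNA kit, total RNA) of 22 mice were read as the table of whole-number counts per gene that the authors deposited, 55573 genes by 22 libraries. The submitters' processing notes name bcl2fastq, Trimmomatic, STAR and HTSeq with the GRCm38 build and give no versions; the strand and overlap settings of the counting, and a step that collapses duplicate reads, are not given in the sources used here. Counts were not normalized by the authors, and no other columns were used. Library sums ran from 13751347 to 21144388 reads, and intervals and limits from counts cover counting error only.

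Counts were analysed in R 4.3.3 with edgeR 4.0.16: TMM factors, a minimum mean count of 10 (14062 genes), 1 quasi-likelihood fit of the 4 groups, and Benjamini-Hochberg adjustment over all tested genes, called under 0.05. Groups came from the labels, which do not say whether mice shared cages or litters, so p-values measure the spread between these mice. Single members were also compared by a two-sided exact permutation test of mean log2 CPM (prior count 2), 28 tests with raw p-values; the smallest p that 6 against 5 mice allow is 0.00216. Within every group the libraries differed, and 0 pairs held identical values. Alternatives were limma-voom (limma 3.58.1), DESeq2 1.42.0, RLE size factors, other filters, only the groups compared, the replicate number as a block, a covariate for the sex read from counts, and fits without 1 mouse or without doubted libraries. Leaving out the libraries with Xist and Y-linked reads, sex with the muscle-rich library left out, the fits of Mirg at a mean count of at least 1 and the refits of the listed genes named in the text were chosen after seeing the data. On counts simulated for MCD against chow in Cre mice, with 200 of 14062 genes changed, the fit recovered 90% of changes of 2 and 72% of changes of 1 on the log2 scale, and 2.99% of its calls were false. In the data 57.5% of genes were called in that comparison, a far larger share, so these rates may not hold for the data.

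The members and the gene lists were chosen with earlier results of these data known. Named genes were all members, Flcn, the markers, up to 3 called genes per list and comparison with the largest change and a mean of at least 1 CPM, and the 3 genes closest to each member by Pearson correlation. Aldoa stands in 2 rows, of which the one with more counts was used. Gene positions are those of GENCODE M21 (GRCm38), promoter windows those of RefSeq (GRCm38.p6; 32851 windows).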

Additional observations from a re-analysis of the deposited data

Results flagged for a closer look

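For 3 members the diet effect differed between Cre and Flcn KO mice by the interaction term of edgeR's quasi-likelihood fit. The difference of diet effects was -5.72 for H19 (adjusted p = 0.00986), -3.67 for Meg3 (adjusted p = 0.00510) and 1.82 for Peg3 (adjusted p = 0.0296). For H19 it was -3.53 without FLCN KO Chow replicate 4 (adjusted p = 0.0380) and -3.54 in limma-voom, which did not call it (adjusted p = 0.240), and for Meg3 -2.92 without Cre MCD replicate 3 (adjusted p = 0.00843). None of the 3 passed without the 5 libraries that carried both Xist and Y-linked reads (-3.75, -3.79 and 2.36; adjusted p = 0.113, 0.0626 and 0.0685), a fit in which 84 of all genes passed in place of 1242.

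Among the 28 groups of tested members, 3 held a library far from the others by Dixon's criterion on CPM, and 0 did on log2 CPM. Chance gives about 1 in 20 groups for normally distributed values, and whether CPM follow that shape was not tested. H19 was at 46.9 CPM in FLCN KO Chow replicate 4, with the next liver at 6.30 CPM. Meg3 was at 63.3 CPM in Cre MCD replicate 3, the liver with the most skeletal muscle RNA, with the next at 24.2 CPM. Peg3 was at 82.8 CPM in FLCN KO MCD replicate 6, with the next at 44.3 CPM.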

How the results depend on the processing

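No result changed direction past the threshold under any alternative. Members called numbered 5, 6, 2, 4 and 3 for the diet in Cre and in Flcn KO mice, the genotype on chow and on MCD, and the interaction, and all genes called 8089, 6328, 1212, 2333 and 1242. With 1 mouse left out in turn the members ranged from 4 to 6, 6 to 7, 1 to 3, 3 to 4 and 2 to 3, and all genes from 7620 to 8209, 5619 to 6586, 670 to 1429, 1773 to 2460 and 819 to 1426. The 670 and 820 came from leaving out FLCN KO Chow replicate 4, and the 819 from leaving out Cre MCD replicate 1. On chow the genotype called 0 members by limma-voom, 1 without the 5 chow libraries of low unique mapping (494 genes) and 1 without the libraries with Xist and Y-linked reads (463 genes). The last setting left 1194 genes for the genotype on MCD, and 0 members and 84 genes for the interaction; without the low-mapping libraries the interaction called 779 genes. These fits hold fewer mice. Of the single values 39 changed side of the threshold, 18 of them with a mouse left out. Replicate numbers do not pair the mice: same-numbered mice deviated together with mean correlations of -0.08, -0.01, 0.06 and 0.13 in the 4 comparisons. Under a replicate block the interaction called 1 member and 552 genes, Meg3 in Cre mice was 1.32 (adjusted p = 0.0809), Flcn on chow was -0.57 (adjusted p = 0.0528), and the H19 and Peg3 interactions were -4.97 and 1.60 (adjusted p = 0.0665 and 0.0694). Igf2, Dlk1 and Scd4, with 4, 27 and 21 reads in all, were too low to compare, and the cause of their low counts was not tested.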

Other observations

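Outside the members, 11 genes of the fetal liver list were under the count minimum, and no test of them is given. The 2 described here were chosen after their reads had been seen. Lin28b, an RNA-binding protein that blocks the maturation of let-7 microRNAs in fetal cells, had 1 and 2 reads in Cre mice on chow and MCD and 2 and 24 reads in Flcn KO mice. Sall4, a zinc finger factor of embryonic cells, had 0 and 2 reads in Cre mice and 11 and 46 reads in Flcn KO mice. The other 9 (Igf2bp1, Lin28a, Hmga2, Trim71, Cdh17, Prtg, Ptn, Cldn6 and Sox11) had 1 to 171 reads in all, and among them Igf2bp1 alone had most of its reads in Flcn KO mice on MCD, 2 of 3. Cldn6, a tight junction protein, had the most, with 19 and 74 reads in Cre mice on chow and MCD and 34 and 44 reads in Flcn KO mice.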
